A study of Mus musculus with 6 samples.

Results

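The small leucine-rich proteoglycan genes Ogn, Omd, Aspn, Lum, Dcn, Bgn, Fmod, Kera, Prelp and Epyc were followed across 6 mouse tumours. All 10 genes were measured, each by 1 Affymetrix probe set with a single gene symbol in the platform annotation, out of 19938 genes measured in that way. The family was singled out because several of its genes were already known, from these same arrays, to lie among the largest differences between the groups. The differences between relapsed and control tumours are therefore given as a description of these 10 genes. Their p-values are not given, and where a proteoglycan gene is said to be called, the word says on which side of the limma threshold it lay and is no independent test. The 3 control gliomas, numbered 1, 2 and 4, and the 3 relapsed gliomas, numbered 1, 2 and 3, were all subcutaneous flank tumours in Nu/Nu mice, an immunodeficient strain without a working thymus, and all came from glioma cells that a mutant form of the epidermal growth factor receptor (EGFR) drives. The relapsed tumours had regrown after the mutant receptor was switched off. Some mice received doxycycline in their drinking water (2 g/L), though the labels leave out which, and tumours were taken at 2 cm3. The labels give neither the age of the mice, nor the species of the receptor, nor whether each tumour came from its own mouse, so errors describe the spread between these tumours. The sample titles carry a different number for each tumour, with the letter R or L added in the controls only, and the labels do not say what numbers or letters stand for.

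Small leucine-rich proteoglycans are secreted proteins whose core folds into a curved stack of leucine-rich repeats. Most bind collagen fibrils and set their diameter and spacing, and many carry chondroitin, dermatan or keratan sulfate chains. Fibroblasts of skin, tendon, cornea and fascia are their best known source, and several members also bind growth factors or receptors such as transforming growth factor beta (TGF-beta), EGFR, Met and the Toll-like receptors. In bulk tumour RNA the implanted cells and the mouse stroma cannot be separated, and a larger number of producing cells cannot be told apart from more RNA per cell.

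All values are log2 intensities as deposited, already normalized between arrays, on which 1 unit is a 2-fold difference. The median per array lay between 6.58 and 6.68. Over 10 glial markers the mean level was 10.2 to 10.9 in controls and 8.93 to 9.14 in relapsed tumours. Of the 10, 5 fell (Olig1, Olig2, Bcan, Ncan and Fabp7), beside 5.47% of all genes. Gfap and Egfr had a higher mean in relapsed tumours, by 0.64 and 0.24, without being called. Sox10 was dim in every tumour, at 6.62 to 6.95, below 7.20, the third quartile of probe sets with no gene listed. Over 16 fibroblast markers that include none of the proteoglycans studied, the mean level was 8.61 to 9.01 in controls and 9.33 to 10.2 in relapsed tumours. Of these, 5 rose (Col1a1, Col1a2, Col3a1, Fap and Dpt), beside 3.69% of all genes, and none fell. The mean was higher in relapsed tumours for 12 of the 16 and lower for Thy1, Pi16, Fbln1 and Fbln2. Over 12 macrophage markers the mean level was 8.97 to 9.28 in controls and 10.4 to 11.0 in relapsed tumours, with 9 risen and none fallen. The part of these cells in the results below was not tested. Single tumours stood apart in tissue markers. The score of 8 adipocyte markers (mean log2 value centred on each gene) was 2.44 in relapsed 1 against -0.75 to -0.24 elsewhere, that of 9 keratinocyte markers was 1.33 in relapsed 3 against -0.38 to -0.20, and that of 10 skeletal muscle markers was 1.64 in control 2 against -0.56 to 0.09. Relapsed 1 also had the highest fibroblast score, 0.93 against 0.18 and 0.07 in relapsed 2 and 3.

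**Figure D1:**
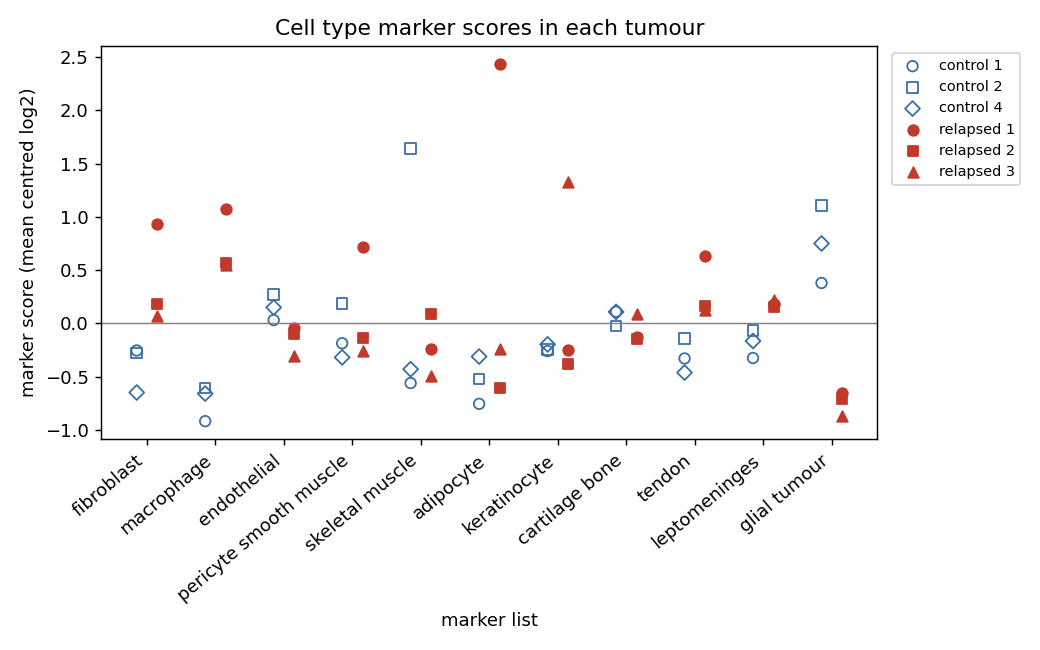
Score of each cell type marker list (the average of its genes' log2 values, each centred on that gene's mean) in each tumour, with control tumours as open blue symbols and relapsed tumours as filled red symbols. Relapsed 1 stands at 2.44 in the adipocyte list, relapsed 3 at 1.33 in the keratinocyte list and control 2 at 1.64 in the skeletal muscle list.

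The proteoglycan genes were higher in relapsed tumours, very unequally so. Of the 10 genes, 5 were called higher (Ogn, Omd, Aspn, Lum and Dcn) and none lower, at an adjusted p under 0.05 in limma over all genes. In the same fit 3.69% of all genes were called higher, and since the family was picked from this comparison nothing is read from the contrast. All 3 relapsed tumours lay above all 3 controls for 9 of the 10, against 13.0% of all genes, with Epyc as the exception, and nothing is read from this contrast either. The median difference was 2.30 over the 10 genes and -0.02 over all genes. Leaving out single tumours changed the number called. It was 4 without control 1, control 2 or relapsed 3, 5 without relapsed 1, and 2 without control 4 or without relapsed 2. As the family was chosen on these same tumours, these counts are no independent measure of stability.

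**Figure D2:**
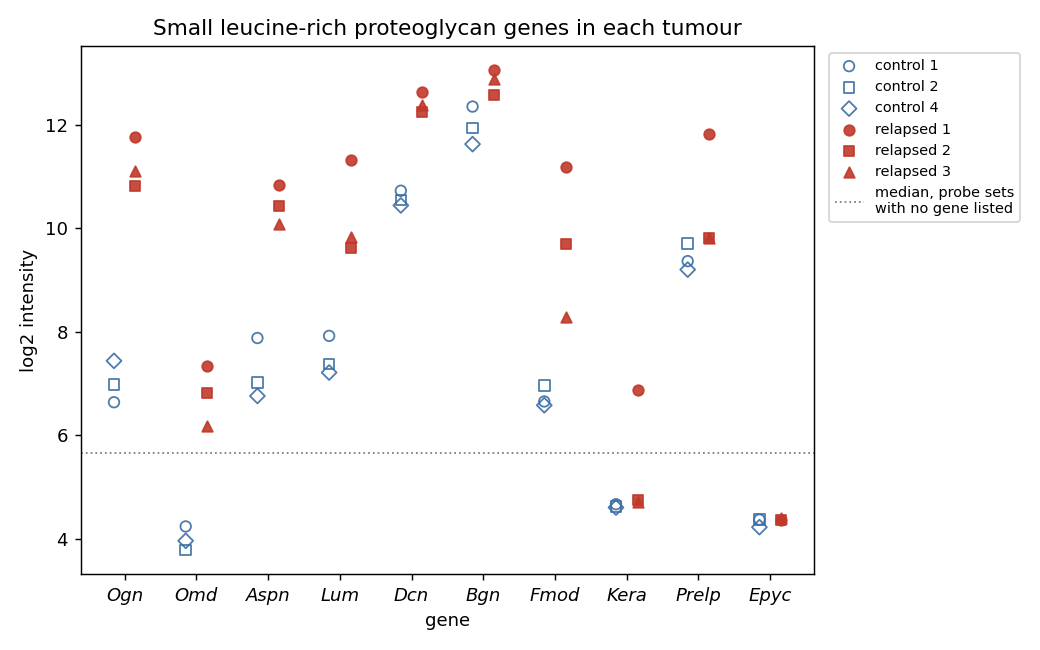
Log2 intensity of each proteoglycan gene in each tumour, with controls as open blue symbols to the left and relapsed tumours as filled red symbols to the right; the dotted line is 5.65, the median level of probe sets that the annotation lists with no gene. Relapsed 1 (filled circle) is the highest tumour for every gene but Epyc, and levels of different genes are not comparable because each has its own probes.

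Among the members of the decorin class, Dcn encodes decorin, the dermatan sulfate proteoglycan that coats collagen fibrils and holds TGF-beta. Its level was 10.72, 10.54 and 10.44 in controls 1, 2 and 4 and 12.63, 12.25 and 12.37 in relapsed 1, 2 and 3. The lowest relapsed value was 1.53 above the highest control value, and both groups were narrow. The difference was 1.85 ± 0.13 (SE, n = 3 tumours per group), or 3.60-fold. Dcn had the smallest spread of the 5 called genes, with an SD of 0.14 in controls and 0.19 in relapsed tumours.

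Bgn encodes biglycan, the close relative of decorin that also acts as a danger signal through Toll-like receptors. It stood at 12.35, 11.94 and 11.62 in controls 1, 2 and 4 and at 13.06, 12.58 and 12.87 in relapsed 1, 2 and 3. The gap between control 1 and relapsed 2 was small, and the difference of 0.87 ± 0.22 was not called. Its 95% interval in the fit was 0.32 to 1.41.

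Aspn encodes asporin, the aspartate-rich member of this class, which carries no glycosaminoglycan chain and restrains TGF-beta. It was 7.88, 7.02 and 6.76 in controls 1, 2 and 4 and 10.83, 10.43 and 10.09 in relapsed 1, 2 and 3. No relapsed tumour came near the control range, and the difference was 3.23 ± 0.34, or 9.37-fold. Of the 3 genes of the decorin class it had by far the widest difference and Bgn the narrowest.

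In the class of keratan sulfate-bearing and tyrosine-sulfated members, Lum encodes lumican, a proteoglycan of cornea, dermis and other connective tissue. Its level was 7.92, 7.38 and 7.21 in controls 1, 2 and 4, and 11.32, 9.63 and 9.84 in relapsed 1, 2 and 3. Relapsed 1 stood 1.49 above the next tumour, so the mean difference of 2.76 ± 0.49 dropped to 2.23 without relapsed 1, where Lum was still called. It was not called when any other tumour was left out.

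Fmod encodes fibromodulin, which competes with lumican for a site on collagen and is abundant in tendon. It stood at 6.65, 6.96 and 6.58 in controls 1, 2 and 4 and at 11.18, 9.69 and 8.29 in relapsed 1, 2 and 3. The relapsed tumours were spread over nearly 3 log2 units, each well above every control. The difference of 2.99 ± 0.72 was the third widest of the 10 but was not called, and its 95% interval ran from 1.20 to 4.78. The SD was 1.44 in relapsed tumours and 0.20 in controls, while the medians over all genes were 0.13 and 0.12.

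Omd encodes osteomodulin, also named osteoadherin, an acidic keratan sulfate proteoglycan of mineralized tissue. It was 4.24, 3.78 and 3.96 in controls 1, 2 and 4 and 7.33, 6.81 and 6.18 in relapsed 1, 2 and 3. All relapsed tumours lay above 5.65, the median of probe sets without a listed gene, and all controls lay below 4.32, the first quartile of those probe sets. The difference was 2.78 ± 0.31, and no fold is given because the control signal was this dim. Over 9 measured bone and cartilage markers the mean level was 5.88 to 6.01 in controls and 5.75 to 5.99 in relapsed tumours. Of these 9, 6 had a higher mean in relapsed tumours, none rose, 1 fell and 8 were not called. The gene that fell was Alpl, by 2.52 ± 0.15. Acan, which encodes the cartilage proteoglycan aggrecan, went the other way without being called, from 5.60, 5.50 and 5.60 in controls 1, 2 and 4 to 7.16, 6.01 and 7.36 in relapsed 1, 2 and 3, a difference of 1.28 ± 0.36.

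Prelp encodes a basic member that links basement membranes to the matrix below. Its level was 9.36, 9.70 and 9.20 in controls 1, 2 and 4 and 11.81, 9.81 and 9.82 in relapsed 1, 2 and 3. Relapsed 2 and 3 were barely above control 2, and relapsed 1 stood 2.00 above them. The difference was 1.06 ± 0.58 over all tumours and 0.39 without relapsed 1, and it was called in neither fit.

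Kera encodes keratocan, a keratan sulfate proteoglycan known from the cornea. It was 4.67, 4.63 and 4.60 in controls 1, 2 and 4 and 6.88, 4.74 and 4.71 in relapsed 1, 2 and 3. Only relapsed 1 was above the level of 5.65. Relapsed 2 and 3 lay just above the controls, and the difference went from 0.81 ± 0.61 to 0.10 without relapsed 1. It was called in neither fit.

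The remaining pair belongs to the class of osteoglycin and epiphycan. Ogn encodes osteoglycin, also named mimecan, which regulates collagen fibril formation. Its level was 6.64, 6.98 and 7.44 in controls 1, 2 and 4 and 11.75, 10.82 and 11.11 in relapsed 1, 2 and 3. The lowest relapsed value was 3.38 above the highest control value, and the difference of 4.21 ± 0.31, or 18.5-fold, had a 95% interval of 10.8-fold to 31.6-fold. It was the highest of the family, and the second highest of all genes.

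Epyc encodes epiphycan, a dermatan sulfate proteoglycan of growth plate cartilage. It was 4.37, 4.37 and 4.22 in controls 1, 2 and 4 and 4.37, 4.37 and 4.41 in relapsed 1, 2 and 3. All 6 values were under 5.65, and 4 of them were identical to 5 decimals. The difference of 0.06 ± 0.06 had a 95% interval of -0.09 to 0.22, and its sign turned when arrays were centred on the median of all their probe sets, at -0.013.

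**Figure D3:**
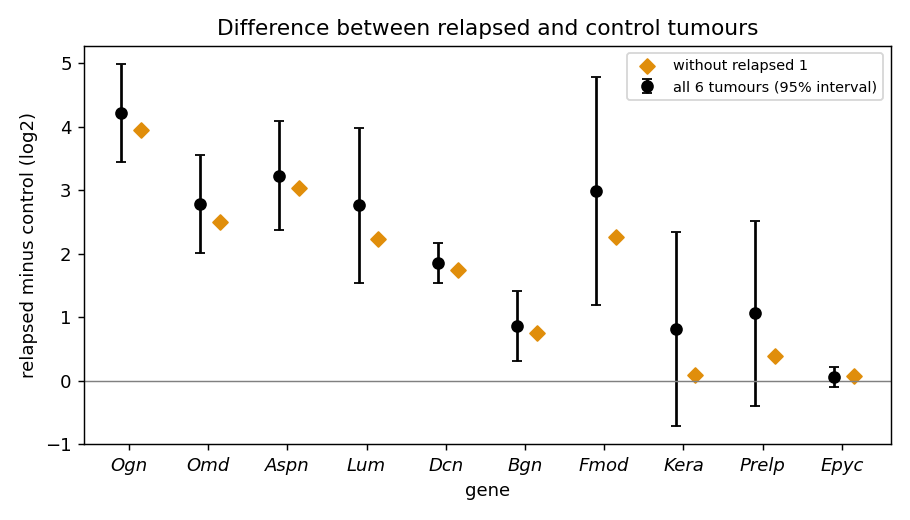
Difference in log2 intensity, relapsed minus control, of each proteoglycan gene with its 95% interval from limma over all 6 tumours (black, 3 per group) and without relapsed 1 (orange diamonds). Ogn keeps 3.95 without that tumour, while Kera goes from 0.81 to 0.10 and Prelp from 1.06 to 0.39. The family was chosen from these same differences, so the intervals are descriptive and lack their nominal coverage.

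Within the relapsed group, relapsed 1 had the highest level for 9 of the 10 genes, against 32.5% of all genes. It stood at least 1 log2 unit above both other relapsed tumours for 4 of the 10, namely Lum, Fmod, Kera and Prelp, against 1.34% of all genes. Relapsed 1 is part of each relapsed mean from which the family was chosen, so these counts are a description and nothing is read from their contrast with all genes. The excess of relapsed 1 over the mean of relapsed 2 and 3 was 2.19 for Fmod, 2.15 for Kera, 2.00 for Prelp and 1.59 for Lum. It was 0.84 for Omd, 0.79 for Ogn, 0.57 for Aspn, 0.33 for Bgn, 0.32 for Dcn and -0.02 for Epyc. Relapsed 1 is the tumour with the high adipocyte score of 2.44 and the highest fibroblast score, and its score of 9 pericyte and smooth muscle markers, 0.72, was above the range of -0.32 to 0.18 in the other tumours. The part of these cells in its proteoglycan levels was not tested.

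The proteoglycan genes were also set against general fibroblast markers, by subtracting the mean of the 16 markers from each gene, array by array. Relapsed tumours then lay above all controls for 6 of the 10 genes, namely Ogn, Omd, Aspn, Lum, Dcn and Fmod, against 0.732% of all genes. The marker mean was itself 0.79 higher in relapsed tumours, so the subtraction lowers the difference of every gene by that amount. The share over all genes was 13.0% before it, so 0.732% is in part a product of the subtraction. The subtraction also does not undo the choice of the family from the same tumours, and nothing is read from this contrast. Relative to these markers, Ogn was -1.85 ± 0.61 (SD, n = 3) in controls and 1.57 ± 0.20 in relapsed tumours, a difference of 3.42. The corresponding differences were 2.44 for Aspn, 2.20 for Fmod, 2.00 for Omd, 1.97 for Lum and 1.06 for Dcn. For Bgn, Kera and Prelp the groups overlapped, with differences of 0.08, 0.03 and 0.27. Epyc came out below, at -0.72. Its own level was flat and under 5.65 in all tumours, while the marker mean was higher by 0.79 in relapsed tumours. The relapsed values of Ogn relative to the markers were 1.56, 1.38 and 1.79 in relapsed 1, 2 and 3, with relapsed 3 the highest. For Fmod they were 0.99, 0.25 and -1.04, the order of its levels.

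Many of these genes sit side by side in the mouse genome. Their positions did not enter the choice of the family, but their differences did. Nothing is therefore read from members set against their neighbours. In the RefSeq gene table of GRCm38.p6, Aspn, Omd and Ogn are consecutive on chromosome 13, Dcn, Lum, Kera and Epyc on chromosome 10, and Prelp and Fmod on chromosome 1, with Bgn alone on chromosome X. On chromosome 13 all 3 members were called higher. On chromosome 10 the differences along the chromosome were 1.85 for Dcn, 2.76 for Lum, 0.81 for Kera and 0.06 for Epyc, so Dcn and Lum were called and Kera and Epyc were not. Of the 24 measured protein-coding genes that lie within or next to these groups, up to 3 on each side, none was called by limma at an adjusted p under 0.05, against 9.16% of all genes. The count called was 1 with quantile normalization and 2 without the dimmer 50% of genes. An unadjusted p under 0.05 was found for 6 of the 24, against 26.6% of all genes, so the share is near the background. Their differences ran from -0.30 to 1.06 with a median of 0.21. Cenpp, a centromere protein gene whose range contains Aspn, Omd and Ogn, differed by 0.33 ± 0.19 (adjusted p = 0.338 in limma). Ecm2, a matrix protein gene with leucine-rich repeats just before Aspn, differed by 1.06 ± 0.55 (adjusted p = 0.294 in limma), with 7.76 in relapsed 1 and 5.72 and 5.97 in relapsed 2 and 3 against 5.37 to 5.46 in controls. Nol8 and Iars, on the other side of Ogn, differed by 0.47 ± 0.18 and -0.30 ± 0.11.

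**Figure D4:**
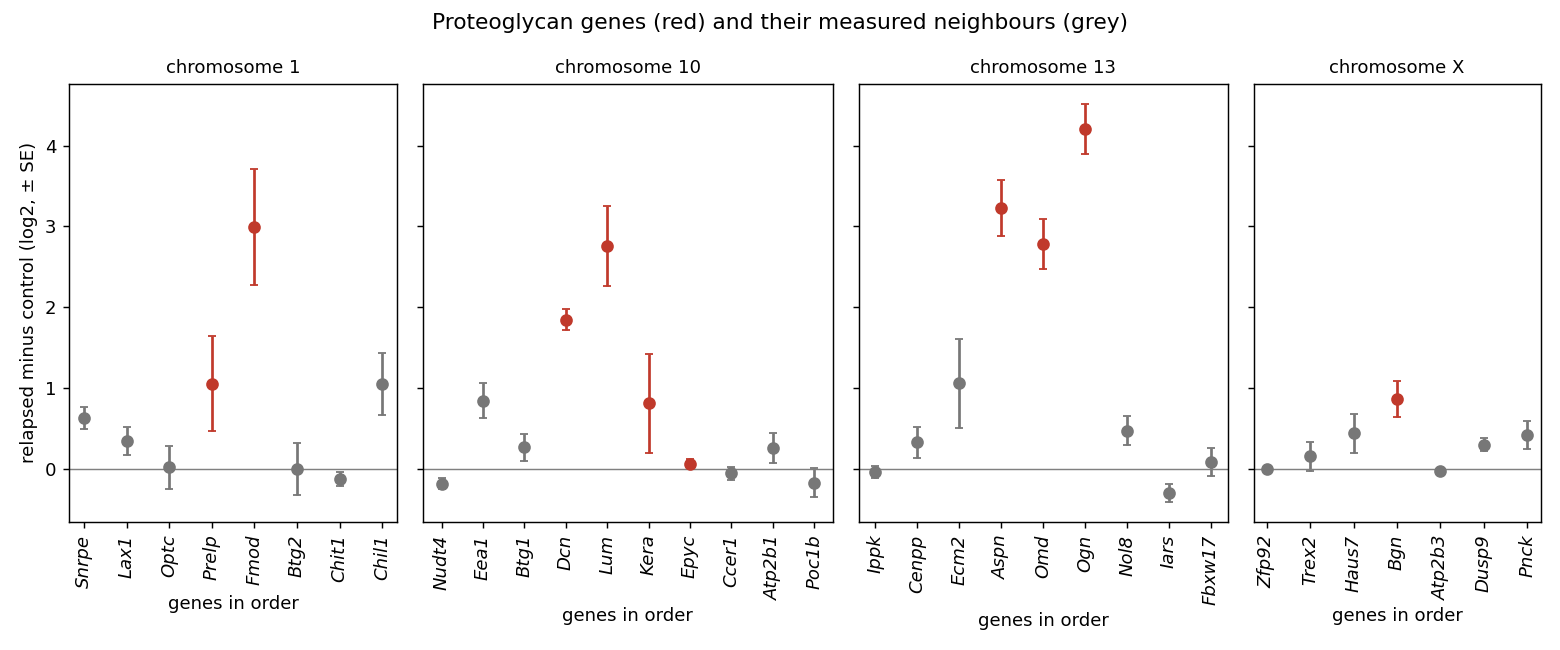
Difference in log2 intensity, relapsed minus control, with its SE from limma (3 tumours per group), for proteoglycan genes (red) and the nearest measured protein-coding genes (grey), in chromosomal order but not to distance. Aspn, Omd and Ogn stand at 3.23, 2.78 and 4.21 while the grey genes stay between -0.30 and 1.06. The family was chosen from these same differences, so nothing is read from red set against grey.

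The promoters of the 3 adjacent genes on chromosome 13 are shown because these genes differed together. They are RefSeq sequences of build GRCm38.p6 on the plus strand, each 250 bases before and 50 bases from the annotated start, at chr13:49544193-49544492 for Aspn, chr13:49582212-49582511 for Omd and chr13:49607765-49608064 for Ogn. Capitals mark TATAAA on either strand (read on the minus strand as its reverse complement), the only one of the 3 motifs searched that occurs in them.
Aspn: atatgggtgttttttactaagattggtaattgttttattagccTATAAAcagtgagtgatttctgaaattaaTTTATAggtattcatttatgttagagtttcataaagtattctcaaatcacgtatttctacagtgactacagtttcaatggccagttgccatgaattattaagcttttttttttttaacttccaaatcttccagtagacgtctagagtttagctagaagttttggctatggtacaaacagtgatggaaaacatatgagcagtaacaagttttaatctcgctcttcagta
Omd: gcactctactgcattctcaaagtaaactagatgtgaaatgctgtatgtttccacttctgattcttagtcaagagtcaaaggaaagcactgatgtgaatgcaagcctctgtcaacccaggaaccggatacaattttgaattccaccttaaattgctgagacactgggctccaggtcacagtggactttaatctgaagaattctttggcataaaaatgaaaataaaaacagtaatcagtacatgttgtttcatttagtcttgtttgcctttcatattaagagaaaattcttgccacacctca
Ogn: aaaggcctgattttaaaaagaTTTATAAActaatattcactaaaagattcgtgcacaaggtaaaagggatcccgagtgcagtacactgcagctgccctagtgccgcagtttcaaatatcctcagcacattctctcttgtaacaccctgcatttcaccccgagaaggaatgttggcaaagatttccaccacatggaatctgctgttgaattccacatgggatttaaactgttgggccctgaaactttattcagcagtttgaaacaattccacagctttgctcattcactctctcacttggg
Positions are those of the leftmost printed base of each match, counted from the start site. In Aspn they are -207 for the plus-strand match and -178 for the minus-strand match. In Ogn they are -227 and -229, where the matches overlap. Promoter sequences of 8 of the 10 members were matched, all but Lum and Dcn. TATAAA occurred in those of Aspn and Ogn, against 13.6% of 32851 promoters of the same length. The motifs TGANTCA and CACCTG, searched on both strands, occurred in none of the 8, against 7.81% and 20.2% of all promoters.

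Genes that act on or with these proteoglycans were compared as lists. Of 88 measured genes in 6 lists, 16 rose and 5 fell in limma, beside 3.69% risen and 5.47% fallen over all genes. The median difference was 0.22 over these genes and -0.02 over all genes. These calls depended on single tumours. Their number of 21 became 6, 7 and 1 without control 1, 2 and 4, and 10, 5 and 2 without relapsed 1, 2 and 3. Dse was the only related gene called in all 6 of these fits. Dsel and Tlr4 were called in 3 of them, and each of the other related genes that rose or fell in 2 or fewer. Among these, the risen genes B3gnt2 and Col1a2 and the fallen genes Chsy1, Chpf and Chst7 were called in none.

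Among 6 other measured leucine-rich proteoglycan genes, 1 rose and none fell, with a median difference of 0.35. Podnl1, a podocan-like member, was 6.43, 6.32 and 6.12 in controls 1, 2 and 4 and 8.36, 7.64 and 7.49 in relapsed 1, 2 and 3. It rose by 1.54 ± 0.25 (adjusted p = 0.0259 in limma). Podn, which encodes podocan, was high only in relapsed 1, at 9.58 against 7.76 and 7.80 in relapsed 2 and 3 and 7.37 to 7.97 in controls. Its relapsed 2 and 3 lay within the control range. Optc, Chad and Nyx, known from eye and cartilage, differed by 0.02, -0.06 and 0.01.

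Enzymes that build and sulfate chondroitin and dermatan sulfate, the chains carried by decorin and biglycan, split evenly. Of 26 measured, 4 rose and 4 fell, with a median difference of -0.07. Dse, the epimerase that turns chondroitin into dermatan sulfate, was 8.52, 8.52 and 8.58 in controls 1, 2 and 4 and 10.08, 9.78 and 9.77 in relapsed 1, 2 and 3. It rose by 1.34 ± 0.10 (adjusted p = 0.00734 in limma), and its relative Dsel rose by 1.08 ± 0.13. Papss2, which makes the sulfate donor, rose by 1.63 ± 0.30, and Csgalnact2, which starts chondroitin chains, by 1.08 ± 0.16. Xylt1, the xylosyltransferase that attaches the linker sugar to the core protein, was 10.68, 11.02 and 10.86 in controls 1, 2 and 4 and 9.40, 9.32 and 10.00 in relapsed 1, 2 and 3. It fell by 1.28 ± 0.21 (adjusted p = 0.0263 in limma). The chain-extending genes Chsy1 and Chpf fell by 0.43 ± 0.09 and 0.51 ± 0.10, and the sulfotransferase gene Chst7 by 0.79 ± 0.17. Their adjusted p were 0.0499, 0.0391 and 0.0475 in limma, and none of them was called in any of the 6 fits without 1 tumour. Papss2, Csgalnact2 and Xylt1 were each called in only 1 of those 6 fits.

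Of 8 enzymes of keratan sulfate, the chain of lumican, fibromodulin and keratocan, 1 rose and 1 fell, with a median difference of 0.01. Chst2, a sulfotransferase of N-acetylglucosamine, fell by 1.28 ± 0.21 and B3gnt2, which extends lactosamine chains, rose by 0.85 ± 0.15, with adjusted p of 0.0270 and 0.0335 in limma. Chst5, a sulfotransferase of the cornea type, differed by 0.02.

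Collagens that these proteoglycans bind or accompany had a higher mean in relapsed tumours for 13 of 14 measured. Of the 14, 5 rose and none fell, with a median difference of 0.98. The genes that rose were Col6a3 by 1.63 ± 0.22, Col1a2 by 1.48 ± 0.31, Col5a2 by 1.38 ± 0.24, Col3a1 by 1.19 ± 0.15 and Col1a1 by 1.13 ± 0.19. Their adjusted p ran from 0.0170 for Col3a1 to 0.0467 for Col1a2 in limma. The number of collagen genes called became 4, 0 and 0 without control 1, 2 and 4, and 1, 0 and 0 without relapsed 1, 2 and 3. Of the 14, 4 (Col1a1, Col1a2, Col3a1 and Col14a1) are also among the fibroblast markers. Ogn, Aspn, Fmod, Omd, Lum and Dcn differed by more than Col6a3, the collagen gene with the widest difference of the 14. Prelp, Bgn, Kera and Epyc, at 1.06, 0.87, 0.81 and 0.06, differed by less than each of the 5 collagen genes that rose. Since the family was chosen from these same differences, nothing is read from its order against the collagens. The cartilage collagen gene Col2a1 was at 7.56 to 7.71 in controls and 7.61 to 7.66 in relapsed tumours.

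Of 22 ligands and receptors known to bind family members, 5 rose and none fell, with a median difference of 0.25. Tlr4 and Cd14, the receptor and co-receptor through which biglycan signals, rose by 1.17 ± 0.12 and 1.60 ± 0.27, with adjusted p of 0.0130 and 0.0298 in limma. Ccn4, a matricellular gene whose product binds decorin and biglycan, rose by 1.33 ± 0.18, Tgfb1 by 0.74 ± 0.11 and P2rx4, a receptor for extracellular ATP, by 0.67 ± 0.09. Tlr4 and Cd14 are also genes of macrophages, whose score was higher by 1.45 in relapsed tumours, and that part was not tested. None of 12 proteinases that cut these proteoglycans or related matrix was called in limma, and 6 had an unadjusted p under 0.05, against 26.6% of all genes. Of the proteinases 1 was called with quantile normalization or with centring on the median of all probe sets, and 2 without the dimmer 50% of genes or without relapsed 2. The smallest p-values of the list were those of Bmp1, which removes the propeptide of biglycan, at -0.55 ± 0.12 (adjusted p = 0.0549 in limma), and Adamts5, an aggrecanase that also cuts biglycan, at 1.42 ± 0.42 (adjusted p = 0.0994 in limma).

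**Figure D5:**
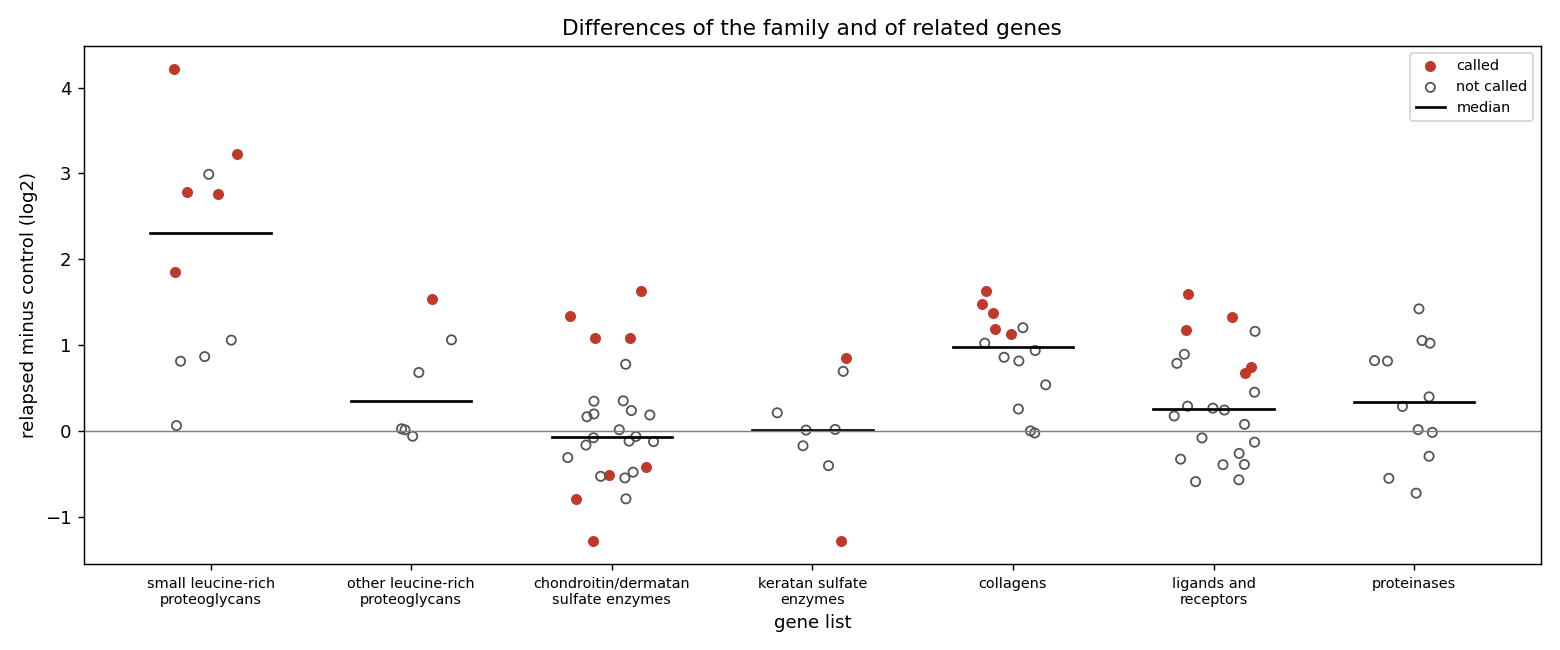
Difference in log2 intensity, relapsed minus control (3 tumours each), of every gene in the family and in 6 lists of related genes, with genes called by limma over all genes in filled red and the median of each list as a bar. The family's median is 2.30, that of collagens 0.98, and those of the chain-building enzyme lists -0.07 and 0.01. The family was chosen from these same differences, so nothing is read from its place beside the other lists.

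The genes with the most similar profile to each called member were found by the root mean square difference of log2 values centred on each gene's mean, over the 6 tumours. This distance depends on the size of the difference between the groups, from which the family was chosen. Nothing is therefore read from members that lie near each other. Ogn was nearest to Itgbl1, Glipr1 and Crabp2 (0.50, 0.64 and 0.69), all of them less steep. Aspn was nearest to Omd (0.35), its neighbour on chromosome 13, then to P2ry10b (0.44) and Lum (0.46). Lum was nearest to Efemp1 (0.28), which encodes a fibulin of the extracellular matrix, Snai2 (0.33), a transcription factor of mesenchymal cells, and Vegfd (0.34). Omd was nearest to Wfdc17, Serpinb6b and Cysltr1 (0.26, 0.28 and 0.30). Dcn was nearest to Pdgfc (0.10), a platelet-derived growth factor, and then to Lilrb4a and Casp4 (0.12 and 0.15), genes expressed in myeloid cells.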

How the data were processed

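Total RNA of 6 tumours, 5 ug each, was labelled with biotin and hybridized to 1 array each, per the labels' protocols. The deposited table holds log2 intensities per probe set; the scale was read from the values (1.93 to 14.2), and the authors had normalized them between arrays. The submitters' processing notes name affy without a version; how background was corrected and probes were summarized is not given in the sources used here. Values were used as deposited, without a filter. Of 35556 probe sets, 21789 had 1 gene symbol, 1621 several and 12146 none listed; for 999 genes with several probe sets the one with the highest mean was used. Differences were fitted with limma 3.58.1 (R 4.3.3; lmFit, eBayes), relapsed against control, with 4 residual and 1.53 prior degrees of freedom and Benjamini-Hochberg adjustment over 19938 genes; calls are at an adjusted p under 0.05, and "rose" and "fell" mean called. Differences carry SE from limma. The script was tested on simulated data. Precision is limited by the number of arrays.

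The members and lists were chosen with earlier results of these data known. Related genes named were up to 4 called per list by size of change, or the 2 with the smallest p where none was called, beside the members, their chromosomal neighbours and the 3 nearest profiles of each called member; Dsel, Chsy1, Chpf, Chst7, Col1a1, P2rx4, Podn, Optc, Chad, Nyx, Chst5, Col2a1 and Acan were added after their values were seen. Of 89 related genes 88 were measured. Protein sequences were not used here. Alternatives were a filter on dim genes, quantile normalization, median centring, the mean of a gene's probe sets, all probe sets tested, an intensity trend, the replicate number as a block and each array left out.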

Additional observations from a re-analysis of the deposited data

How the results depend on the processing

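Limma called 1826 genes over all genes, 735 higher and 1091 lower, and 696 higher and 1687 lower with each array centred on the median of all its probe sets, so the share of rises fell from 40.3% to 29.2%. With all 35556 probe sets tested it called 871 higher and 860 lower, a share of 50.3%. Leaving out 1 array gave 264 to 975 genes, 2 to 5 proteoglycan genes and 1 to 10 related genes, in place of 1826, 5 and 21. The same 5 proteoglycan genes were called with quantile normalization, that centring, the intensity trend, the mean of probe sets and all probe sets. Centring on the tested genes, chosen after seeing the data, added Bgn and Fmod, and so did leaving out the dimmer 50% of genes, which also left out Omd, Kera and Epyc. With the replicate number as a block, limma called 0 genes, 0 proteoglycan genes and 0 related genes, with 1 residual degree of freedom; 2199 genes had an unadjusted p under 0.05. The groups share only numbers 1 and 2, whose tumours deviated from their group means with correlations of -0.34 and -0.25, and nothing says that a number pairs tumours. Of 374 values of 27 named genes under 14 alternatives, 267 kept their direction and side of the threshold, 97 lost the call, 9 gained it and 1 reversed, that of Epyc at -0.013. The 267 include values of Bgn, Fmod, Kera, Prelp, Epyc, Bmp1 and Adamts5, which had no call to lose, so they overstate how stable the calls were. Dsel, Chsy1, Chpf, Chst7, Col1a1 and P2rx4 were not among the 27.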

Other observations

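A pair of tendon and bone marker genes outside the family, Scx and Alpl, were chosen here after their values were seen; genes of other marker lists, such as Mrc1 of macrophages, differed by more than Scx. Scx, the transcription factor of tendon cells, was 7.76, 7.53 and 7.37 in controls 1, 2 and 4 and 9.21, 9.04 and 8.70 in relapsed 1, 2 and 3, a rise of 1.43 ± 0.16 (adjusted p = 0.0145 in limma). The late tendon marker Tnmd, at 4.81 to 5.11 in controls and 4.91 to 5.20 in relapsed tumours, and the tendon factor Mkx, at 7.45 to 7.71 and 7.54 to 7.83, were not called. Alpl, which encodes alkaline phosphatase of bone and other tissues, was 9.11, 9.00 and 9.46 in controls 1, 2 and 4 and 6.56, 6.84 and 6.61 in relapsed 1, 2 and 3, and fell by 2.52 ± 0.15 (adjusted p = 0.00568 in limma).

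The identical values of Epyc on 4 arrays were not particular to that gene. Of 19938 genes, 1692, or 8.49%, had the same value to 5 decimals on 4 or more of the 6 arrays.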
